A study of Mus musculus with 9 samples.

Results

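Glycolysis was examined in the testes of Pfn3-deficient mice through 37 genes, namely the enzymes of the pathway with their somatic and germ-cell isozymes, the glycerol phosphate shuttle, the glucose and lactate carriers and the bifunctional enzymes that set the level of fructose 2,6-bisphosphate. Lactate dehydrogenases were not part of the list. The members were found by symbol among the 38674 genes of the deposited table, each on exactly 1 row. Of the 37, 34 had at least 1 read in some animal. Hk3, Hkdc1 and Pklr, which encode a leukocyte hexokinase, a hexokinase domain protein and the pyruvate kinase of liver and red cells, were at 0 in every animal.

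The libraries came from whole testis of male C57BL/6 mice, 3 each of the genotypes WT (Pfn3+/+), Het (Pfn3+/–) and KO (Pfn3–/–). The loss of Pfn3, which encodes a testis-specific profilin, was made by CRISPR/Cas9 deletion. More than 1 deleted line was described in the study's methods, and neither the line sequenced nor the age of these animals was given in the labels. The libraries of a genotype were numbered 1 to 3 and are called animals here, although the labels do not state that each came from a separate animal, so p-values measure the spread between libraries. QuantSeq sequences the 3′ end of each polyadenylated transcript, so the values are comparable between genes without division by length, apart from differences in how well a 3′ end can be counted. The deposited unit is the gene count divided by 1 size factor per animal, called the normalized count below.

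In the cytosol, glycolysis splits glucose into pyruvate and yields ATP without mitochondria. Mammalian sperm run much of it in the principal piece of the flagellum, where several enzymes are bound to the fibrous sheath. Germ cells replace several somatic enzymes with their own isozymes during meiosis and spermiogenesis. Some are encoded by intronless retrogenes, of which Pgk2, an autosomal copy of the X-linked Pgk1, is the best known, and the X chromosome is silenced in spermatocytes.

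Depth ranged from 3375546 to 4287335 recovered reads per animal, and the floor of 3 reads lay between 2.58 and 3.71 normalized counts, a limit that covers counting error only. WT1 detected the fewest genes (18229, against up to 20566) and had the lowest mean correlation with the other libraries (0.772, against up to 0.865). Pfn3 itself was at 592, 383 and 373 normalized counts in WT, 136, 339 and 326 in Het and 74.7, 215 and 279 in KO. KO lay below WT and overlapped Het, but the guides cut inside the coding sequence and QuantSeq reads the 3′ end beyond them, so these counts do not check the labels. Testis markers were abundant, with 126612 to 256634 summed normalized counts over 6 elongating spermatid markers, whereas the sum of 5 epididymis markers did not exceed 7.72 and that of 5 skeletal muscle markers did not exceed 35.7.

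The most abundant member was Gapdhs, the sperm-specific glyceraldehyde 3-phosphate dehydrogenase that is bound to the fibrous sheath. It had 5149, 4093 and 5070.0 normalized counts in WT, 1784, 4975 and 4298 in Het and 2408, 2631 and 3177 in KO. All 3 KO animals lay below all 3 WT animals, while Het1 was the lowest of the 9 and the other Het animals lay in the WT range. In whole testis, fewer cells of a type and less RNA per cell cannot be told apart, here or for the genes below. The gene spans chr7:30729775-30743681 on the minus strand of GRCm38. The somatic partner Gapdh had 22.3, 14.5 and 13.5 in WT, 31.2, 13.0 and 20.1 in Het and 12.9, 19.3 and 14.3 in KO. Gapdh is hard to count by sequence, since 78.3% of the 50-base stretches in the last 300 bases of its transcripts also occur in transcripts of 172 other genes.

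Pgam2, the phosphoglycerate mutase shared by skeletal muscle and sperm, followed Gapdhs with 5710.1, 4013 and 3449.9 normalized counts in WT, 1824, 3343 and 2289 in Het and 2738, 1747 and 2460.4 in KO. Both the KO and the Het animals lay below all WT animals. The skeletal muscle markers Ckm and Myh4 did not exceed 14.2 and 2.9 normalized counts in any animal. The somatic partner Pgam1 had 172, 109 and 101 in WT, 131, 118 and 105 in Het and 85.9, 136 and 107 in KO, and the genotypes overlapped.

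Pgk2, the germ-cell phosphoglycerate kinase at chr17:40207015-40208640, had 4294, 3382 and 2828 normalized counts in WT, 2849, 2826 and 2905 in Het and 2772, 1691 and 2766 in KO. The KO animals lay below the WT animals, but KO1 and KO3 came close to WT3, and KO2 was the lowest of the 9. Pgk1 had 6.19, 61.7 and 56.0 in WT, 107, 45.6 and 63.5 in Het and 54.1, 10.6 and 65.2 in KO, with WT1 and KO2 far under the other 7 animals.

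The promoters of the 3 most abundant isozymes are shown, with those of 2 somatic partners, so that their sequences can be compared. Each line gives the 250 bases before the start in RefSeq (GRCm38.p6), 5′ to 3′ on the gene's strand, with every CpG in capitals. The windows lie at chr7:30739408-30739657, chr11:5803797-5804046 and chr17:40208610-40208859 on the minus strand and at chrX:106186850-106187099 and chr19:41911621-41911870 on the plus strand.
Gapdhs: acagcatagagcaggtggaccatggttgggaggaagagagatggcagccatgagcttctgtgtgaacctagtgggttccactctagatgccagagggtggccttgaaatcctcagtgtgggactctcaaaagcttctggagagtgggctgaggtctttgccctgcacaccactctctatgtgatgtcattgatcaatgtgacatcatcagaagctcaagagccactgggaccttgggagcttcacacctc
Pgam2: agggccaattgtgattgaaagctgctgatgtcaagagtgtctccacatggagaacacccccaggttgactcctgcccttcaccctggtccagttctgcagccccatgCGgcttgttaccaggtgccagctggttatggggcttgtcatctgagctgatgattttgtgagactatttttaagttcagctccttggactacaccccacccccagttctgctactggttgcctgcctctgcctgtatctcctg
Pgk2: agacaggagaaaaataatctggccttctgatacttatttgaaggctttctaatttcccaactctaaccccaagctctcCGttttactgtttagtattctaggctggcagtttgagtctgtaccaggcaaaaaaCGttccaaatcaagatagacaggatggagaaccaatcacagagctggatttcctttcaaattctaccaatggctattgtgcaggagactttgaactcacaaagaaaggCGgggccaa
Pgk1: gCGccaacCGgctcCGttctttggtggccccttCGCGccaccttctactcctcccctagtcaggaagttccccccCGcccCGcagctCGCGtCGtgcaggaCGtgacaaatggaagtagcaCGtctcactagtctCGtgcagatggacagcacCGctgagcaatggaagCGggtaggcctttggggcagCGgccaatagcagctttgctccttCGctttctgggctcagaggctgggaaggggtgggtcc
Pgam1: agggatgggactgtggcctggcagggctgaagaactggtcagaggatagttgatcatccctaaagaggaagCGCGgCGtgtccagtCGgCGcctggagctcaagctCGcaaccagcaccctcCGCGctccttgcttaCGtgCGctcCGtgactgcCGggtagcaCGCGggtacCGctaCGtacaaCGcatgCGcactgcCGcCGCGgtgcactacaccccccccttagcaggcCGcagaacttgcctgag
The Pgam2 window held 1 CpG against 22 for Pgam1, the Pgk2 window 3 against 17 for Pgk1 and the Gapdhs window 0 against 8 for Gapdh, whose RefSeq start lies 694 bases from the GENCODE start. Other pairs went the other way. Aldoart2 held 7 CpG against 0 for Aldoa and 5 for Aldoc, and Eno4 held 22 against 9 for Eno1 and 3 for Eno3. In these windows, 1 per gene, CpG content thus did not separate germ-cell from somatic isozymes as a group. The RefSeq start of Eno1 lies 244 bases from the GENCODE start. The annotated Aldoa and Gapdhs genes extend upstream of their windows, to chr7:126800751 and chr7:30743681, and those stretches were not scored. Over 32851 RefSeq promoters of the same length, the median was 6 CpG (quartiles 2 and 16), and 37.8% held 3 or fewer, so low counts are common. The palindromic cAMP response element TGACGTCA, read on both strands, was found in 0 of the 32 members with a promoter entry and in 1.55% of all promoters. A CpG count or a match describes the letters in this window only.

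Among the aldolases, which split fructose 1,6-bisphosphate, the intronless Aldoart2 was the most abundant. It had 2745, 1512 and 1760.2 normalized counts in WT, 1875, 1744 and 1974 in Het and 1160.4, 1148 and 1601 in KO. Its KO animals lay below all Het animals and overlapped WT, where WT1 stood well above the rest. The other retrogene, Aldoart1, had 94.1, 261 and 258 in WT, 315, 219.8 and 304 in Het and 211, 184 and 276 in KO, and here WT1 was the lowest of the 9. The somatic Aldoa had 1714, 1060.2 and 1086 in WT, 972, 965 and 944 in Het and 798, 865 and 839 in KO. These 3 genotypes did not overlap for Aldoa, with WT highest and KO lowest. Of the 50-base stretches at the Aldoa 3′ ends, 17.9% also occur elsewhere, Aldoart1 included. The brain-type Aldoc had 6.19, 40.5 and 34.8 in WT, 36.8, 60.5 and 33.9 in Het and 38.7, 65.8 and 43.8 in KO.

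The enolases, which make phosphoenolpyruvate, were less abundant. Eno1, the ubiquitous form, had 245, 271 and 258 normalized counts in WT, 113, 238 and 164 in Het and 175, 123 and 145 in KO, and both KO and Het lay below all WT animals. Because 86.9% of the 50-base stretches at its 3′ ends also occur elsewhere, chiefly in the near-identical Eno1b, its reads may be split with that gene. Eno1 and Eno1b together had 409, 545 and 527 in WT, 282, 474 and 344 in Het and 359, 255 and 324 in KO, and the KO sum still lay below the WT sum in every animal. Eno3, the muscle-type enolase, went the other way, with 182, 172 and 205 in WT, 148, 196 and 198 in Het and 249, 252 and 249 in KO, so that every KO animal lay above every WT and Het animal. Eno4, an enolase of the sperm flagellum, had 260.0, 122 and 119 in WT, 23.6, 69.8 and 117 in Het and 54.1, 92.9 and 147 in KO. The neuronal Eno2 had at most 13.2 and was not tested.

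**Figure D1:**
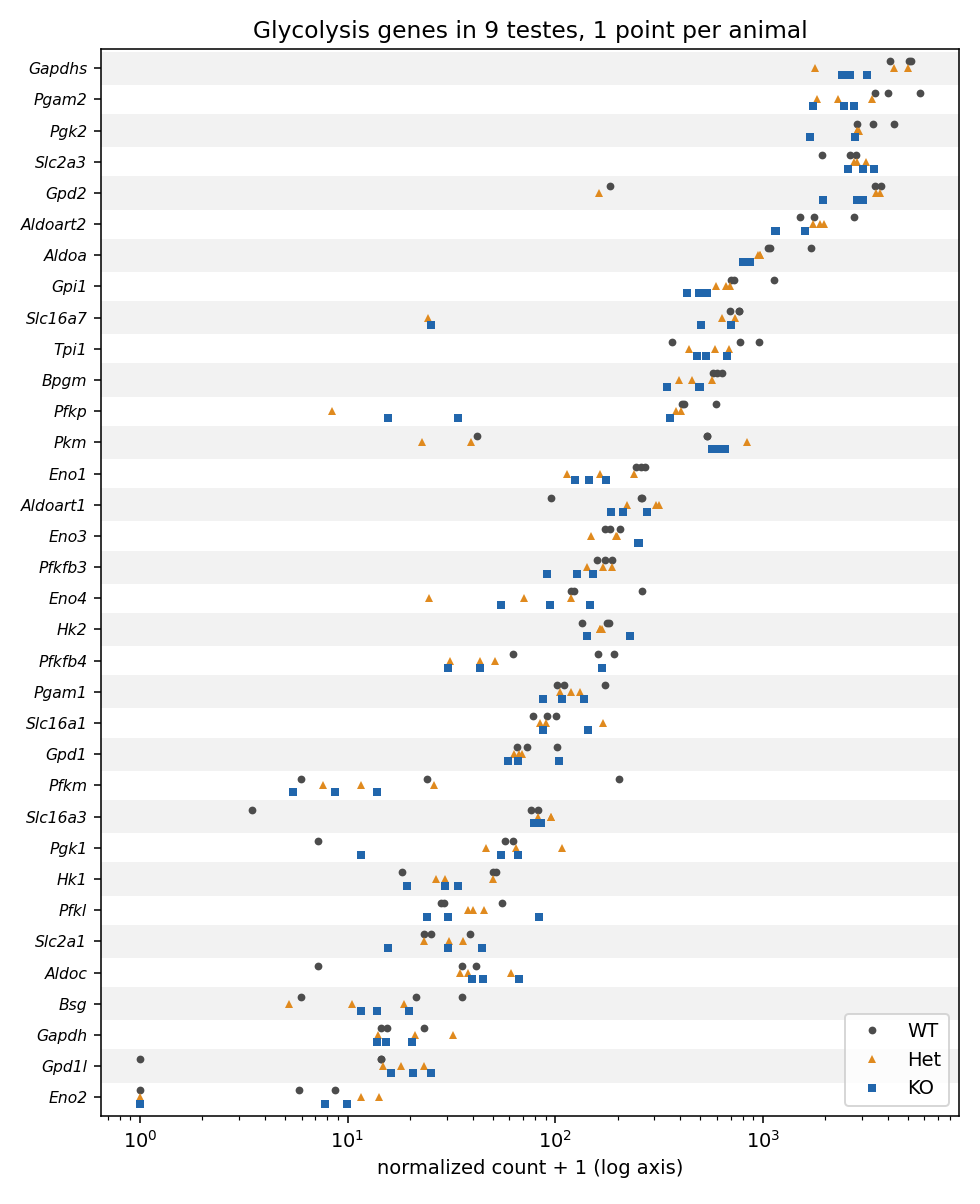
Normalized counts plus 1 (horizontal, log axis) of the 34 members with at least 1 read, ordered by their WT mean, with 1 point per animal (WT circles, Het triangles, KO squares). Gapdhs, Pgam2 and Pgk2 head the list, and single animals of Gpd2, Slc16a7, Pfkp and Pkm lie more than 10-fold under the others of the same gene.

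The steps before the aldolases differed in level, from a WT sum of 203 normalized counts for the hexokinases to 854 for the isomerase. Gpi1, the glucose phosphate isomerase, had 1137, 699 and 725 normalized counts in WT, 664, 697 and 592 in Het and 489.6, 429 and 537 in KO. WT1 stood apart on the high side, and the KO animals were still below all WT and all Het animals. Of the 50-base stretches at the Gpi1 3′ ends, 22.8% also occur in transcripts of Gm1840. The 4 hexokinases, which phosphorylate glucose, summed to 203 ± 24.7 (SD, n = 3) in WT, 199 ± 13.1 in Het and 197 ± 42.5 in KO. The difference between genotypes was smaller than the SD. Of that sum, Hk2 held between 133 and 227, and Hk1, which has germ-cell transcript variants, between 17.3 and 51.1. Tpi1, the triosephosphate isomerase, ranged from 363 to 955, with both extremes in WT animals, and 18.1% of its 3′ stretches also occur in 2 other genes. Pfkl ranged from 23.2 to 82.2.

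Slc2a3, the high-affinity glucose carrier GLUT3, was the main carrier with 1919, 2636 and 2805 normalized counts in WT, 2838, 2731 and 3142 in Het and 2555, 3419.8 and 3019 in KO. Its genotypes overlapped, with KO2 highest and WT1 lowest. Slc2a1 had 22.3, 24.1 and 37.7 in WT, 35.0, 29.8 and 22.2 in Het and 14.6, 43.5 and 29.5 in KO. Of the lactate carriers, Slc16a7 (MCT2) was the most abundant, and Slc16a1 (MCT1) had 100.3, 77.2 and 90.8 in WT, 169, 89.4 and 83.6 in Het and 85.9, 142 and 86.7 in KO. Bsg, the chaperone of MCT1 and MCT4, ranged from 4.23 to 34.8.

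Bpgm, a bisphosphoglycerate mutase, had 631, 601 and 576 normalized counts in WT, 392, 568 and 454 in Het and 493, 344 and 499.6 in KO, and both KO and Het lay below all WT animals. Pfkfb3 and Pfkfb4 make and degrade fructose 2,6-bisphosphate, the activator of phosphofructokinase. Pfkfb3 had 186, 172 and 158 in WT, 142, 169 and 187 in Het and 126, 90.0 and 151 in KO, with KO below WT. Pfkfb4, the form first described in testis, had 61.9, 159 and 191 in WT, 30.2, 50.3 and 42.3 in Het and 167, 42.6 and 29.5 in KO. All Het animals lay below all WT animals for Pfkfb4, whereas KO1 lay within the WT range. In the glycerol phosphate shuttle, the cytosolic Gpd1 ranged from 58.4 to 104, and Gpd1l had 0, 13.5 and 13.5 in WT, 17.0, 22.3 and 13.8 in Het and 19.8, 24.2 and 15.2 in KO, so KO and Het lay above WT at these low levels.

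Several members were nearly absent from single animals. Gpd2, the mitochondrial glycerol 3-phosphate dehydrogenase, had 182, 3468 and 3694 normalized counts in WT, 161, 3496 and 3684 in Het and 2840.4, 1951 and 3031 in KO. WT1 and Het1 were thus under 0.1 of the 9-animal median. Pkm, the M-type pyruvate kinase, had 40.9, 538 and 535 in WT, 21.7, 835 and 38.1 in Het and 609, 565 and 654 in KO, with WT1, Het1 and Het3 low. Pfkp, the platelet-type phosphofructokinase, had 596, 418 and 407 in WT, 382, 401 and 7.41 in Het and 14.6, 32.9 and 357 in KO, with Het3, KO1 and KO2 low and KO3 close to the lower WT animals.

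Slc16a7 had 768, 691 and 765 normalized counts in WT, 634, 736 and 23.3 in Het and 703, 504 and 24.1 in KO, with Het3 and KO3 low. Slc16a3 (MCT4) had 2.48, 75.2 and 82.1 in WT, 81.3, 94.1 and 94.2 in Het and 78.2, 84.2 and 77.8 in KO, with WT1 alone low. Pfkm, the muscle-type phosphofructokinase, had 4.95, 23.2 and 203 in WT, 6.61, 25.1 and 10.6 in Het and 12.9, 7.74 and 4.47 in KO, so WT3 alone was high.

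Among genes with a 9-animal median of at least 50 normalized counts, 5 of 25 members (20%) and 694 of 8322 genes in all (8.34%) had at least 1 animal under 0.1 of that median. The number of such genes was largest in WT1 (336) and Het1 (259) and ranged from 34 to 117 in the other 7 animals. A gene that is low in most animals has a low median itself, so this rule does not flag its low animals. Of the 1004 50-base stretches at the Pfkp 3′ ends, 251 also occur in reverse within Pitrm1 transcripts. Gpd2, Pkm, Slc16a7 and Slc16a3 had 0 stretches in reverse within other transcripts. On the same strand, however, 20.7% of the Pkm stretches also occur in transcripts of 5 other genes. By gene the low animals were not spread evenly over genotypes, with no WT animal low for Pfkp or Slc16a7 and no KO animal low for Gpd2, Pkm or Slc16a3. The cause of these gaps was not tested, and the fold changes of these genes below carry them.

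**Figure D2:**
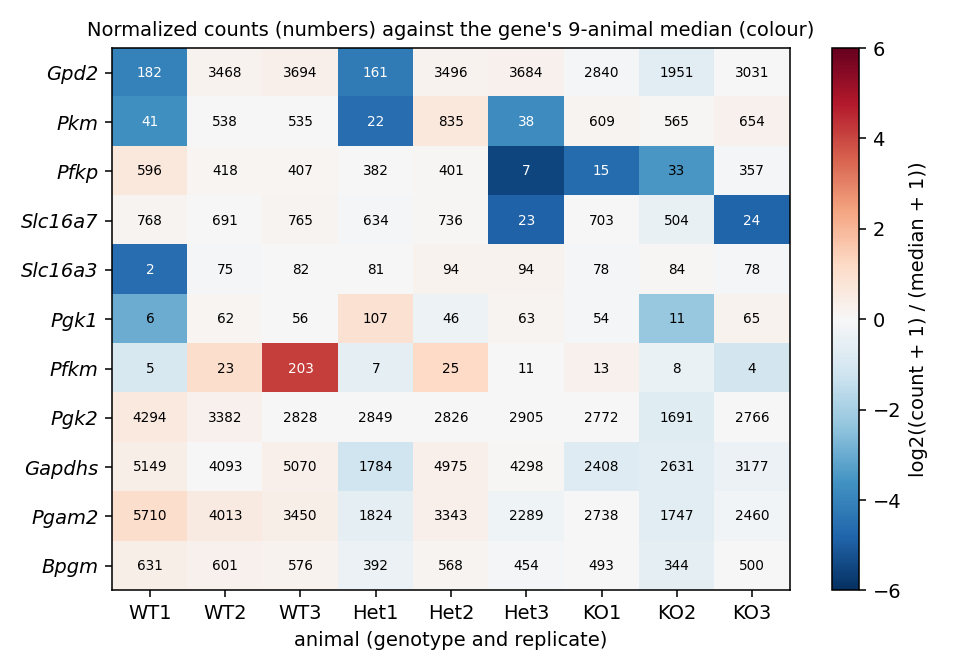
Normalized counts (printed numbers) of 11 members in the 9 animals, with colour showing log2 of (count + 1) over (the gene's 9-animal median + 1). The low cells of Gpd2, Pkm, Pfkp, Slc16a7 and Slc16a3 fall in different animals of all 3 genotypes, whereas Pgk2, Gapdhs, Pgam2 and Bpgm have no animal under 0.1 of the median.

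The first comparison asked which members differed between KO and WT testes. Mean normalized counts in KO were 2739 ± 396 (SD, n = 3) against 4771 ± 588 in WT for Gapdhs and 2315 ± 511 against 4391 ± 1177 for Pgam2, while the carrier Slc2a3 had 2998 ± 433 against 2453 ± 470.4. None of these differences passed the test across all genes. No member was called by limma at the study's cutoffs (adjusted p under 0.05, log2 fold change beyond 1.5 up or down), that is 0 of 33 tested, and this rule called 0.0352% of the 14223 genes tested. On the recovered reads edgeR called 5 genes and DESeq2 100, with 0 members among them. At an unadjusted p under 0.05, 7 of 33 members passed (21.2%), against 8.07% of all genes. Of these, 6 were lower in KO (Gapdhs, Eno1, Pgam2, Gpi1, Pfkp and Aldoa; background 5.03%) and 1 was higher (Eno3; background 3.04%). The smallest adjusted p of any member was 0.529.

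The lower genes were catalytic enzymes of the pathway. On the log2(normalized count + 1) scale, Gapdhs differed by -0.80 (SE 0.18, adjusted p = 0.529 by limma). Pgam2 differed by -0.92 (SE 0.26, adjusted p = 0.610). Eno1 differed by -0.82 (SE 0.21, adjusted p = 0.604). These 3 genes kept their sign in all 10 alternative fits and in all 6 fits without 1 animal. Without WT1 and KO2 together, the Pgam2 difference was -0.52 (Gapdhs -0.72, Eno1 -0.73).

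Gpi1 differed by -0.78 (SE 0.24) and Aldoa by -0.59 (SE 0.23), both with an adjusted p of 0.61. Without WT1, the highest animal for both, Aldoa differed by -0.36 and Gpi1 by -0.56. With 1 animal left out, Aldoa passed the unadjusted threshold in 3 of 6 fits and Gpi1 in 5 of 6. Without WT1 and KO2 together, Gpi1 differed by -0.47. Pfkp had the largest difference, -3.02 (SE 1.11), with KO1 and KO2 among its 3 low animals, and Eno3 differed by 0.43 (SE 0.17). Next to these, Pgk2 differed by -0.55 (SE 0.27), Aldoart2 by -0.59 (SE 0.28), Bpgm by -0.45 (SE 0.21) and Pfkfb3 by -0.52 (SE 0.25), and none of them passed the unadjusted threshold. Of the carriers, Slc2a3 (0.30, SE 0.21), Slc16a1 (0.20, SE 0.28) and Slc16a3 (1.53, SE 1.22) had values above 0, and Slc2a1 (-0.03, SE 0.46), Slc16a7 (-1.84, SE 1.23) and the chaperone Bsg (-0.17, SE 0.71) had values under 0. The hexokinases Hk2 (0.03, SE 0.27) and Hk1 (-0.44, SE 0.49) had opposite signs. None of these 8 genes passed the unadjusted threshold.

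Over the 33 tested members the median log2 fold change was -0.20, with 12 higher and 21 lower, against a median of 0.02 over all genes. For 12 members KO and WT values stood apart without overlap (36.4%, background 19.9%). In 9 of these KO was lower (Gapdhs, Eno1, Pgam2, Gpi1, Pfkp, Aldoa, Bpgm, Pgk2 and Pfkfb3; background 10.5%) and in 3 higher (Eno3, Gpd1l and Pkm; background 9.41%). The number at an unadjusted p under 0.05 was 9 without WT1, 3 without KO2 and 8 without both, where 8.88%, 4.42% and 9.03% of all genes passed. In the leave-one-out fits the median ranged from -0.40 (without WT1) to -0.11 (without KO1). The summed value of all members was 26967, 25972 and 26662 in WT, 16543, 25781 and 22707 in Het and 19901, 17575 and 21237 in KO, so all KO animals lay below all WT animals.

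**Figure D3:**
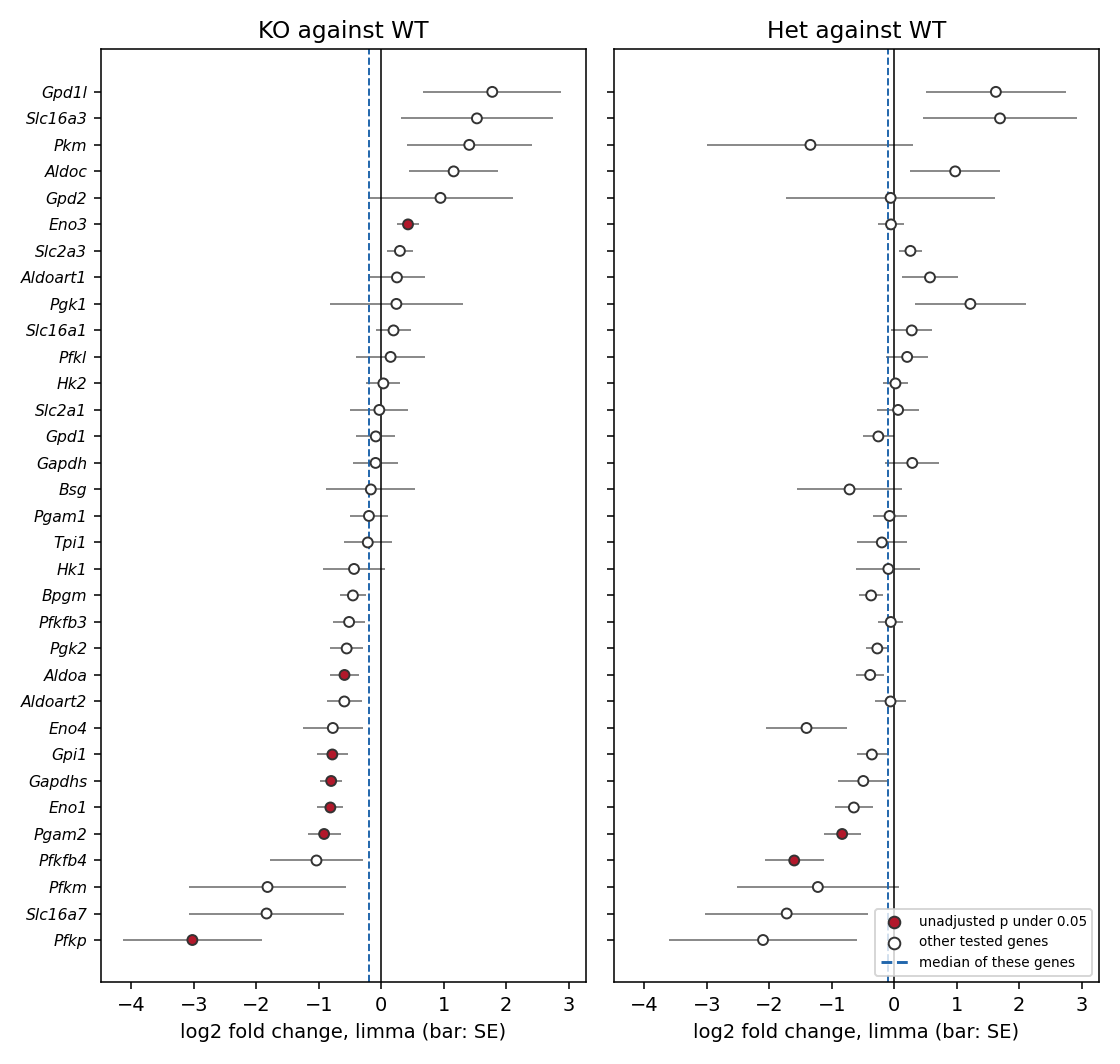
Log2 fold change of each of the 33 tested members (points, with bars for the SE from limma), KO against WT on the left and Het against WT on the right, in the order of the KO against WT values, with a dashed line at the median of the members. Filled points passed an unadjusted p under 0.05 (7 in KO against WT, 2 in Het against WT). The widest bars belong to genes with single outlying animals. They are Pfkm (1 high animal), Slc16a7 and Slc16a3 on the left and Gpd2, Pkm and Pfkp on the right. Both panels share the WT animals.

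The summed spermatid markers were also lower in every KO animal than in every WT animal. The sum of the 6 elongating spermatid markers was 241402 to 256634 normalized counts in WT, 183452 to 223058 in Het and 126612 (KO2) to 203878 in KO. Of these 6 markers all were lower in KO, 3 at an unadjusted p under 0.05, and 2 of 7 round spermatid markers were lower and 2 of 7 spermatocyte markers higher at that threshold, which 5.03% of all genes passed as lower and 3.04% as higher. In the other lists, 1 of 6 tested Sertoli markers was higher and 1 of 4 tested spermatogonia markers was lower at that threshold, and no tested Leydig, peritubular, macrophage or erythrocyte marker passed it. The round spermatid sum was 7529 to 9688 in WT and 3959 (KO2) to 6398 in KO. By the sign of the log2 fold change, 5 of the 7 round spermatid markers were lower and 2 higher. Each sum follows its most abundant markers. Tssk2 had 3801, 3138 and 2597 in WT and 2191, 1118 and 2081 in KO. Spaca1 overlapped, with 331, 538 and 707 in WT and 665, 384 and 643 in KO. In the elongating spermatid sum, Tnp1 in KO1 and KO3 (61377 and 61048) came close to WT3 (61857). The Sertoli marker sum was 5071 in KO2 and 2266 to 3893 in the other 8 animals. Among the elongating spermatid markers, Akap4 was low in single animals, as some members were. It had 45.8, 2573 and 2174 in WT, 70.9, 2210 and 106 in Het and 1770, 105 and 137 in KO.

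Each member was also expressed per 1000 normalized counts of the summed elongating spermatid markers of the same animal, a scale chosen after the values had been seen. Gapdhs was then at 21.3, 15.9 and 21.0 in WT, 9.72, 22.3 and 19.6 in Het and 12.2, 20.8 and 15.6 in KO, and the genotypes overlapped. Pgk2 was at 17.7, 13.2 and 11.7 in WT, 15.5, 12.7 and 13.3 in Het and 14.1, 13.4 and 13.6 in KO, also with overlap. Pgam2 was at 23.6, 15.6 and 14.3 in WT, 9.94, 15.0 and 10.4 in Het and 13.9, 13.8 and 12.1 in KO, and every KO animal was still below every WT animal.

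On this scale 2 of 33 members, Pgam2 and Eno1, had KO below WT without overlap (background 1.4%) and 8 had KO above WT (background 32.1%). The Eno1 reads may be split with Eno1b, and the sum of these 2 genes was not put on this scale. Per 1000 counts of the round spermatid markers, 1 member (Pgam2) had KO below WT (background 1.02%) and 8 had KO above WT (background 38.3%). Gapdhs, Gpi1, Aldoa, Pgk2, Pfkp and Pfkfb3, which were lower in KO by normalized count, overlapped between KO and WT on both scales. Bpgm, also lower by normalized count, overlapped on the first scale but lay above WT on the second. Per 1000 round spermatid marker counts it was at 65.2, 74.5 and 76.6 in WT and 77.1, 87.0 and 80.1 in KO. Division by marker sums that are lower in every KO animal raises KO values relative to WT.

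**Figure D4:**
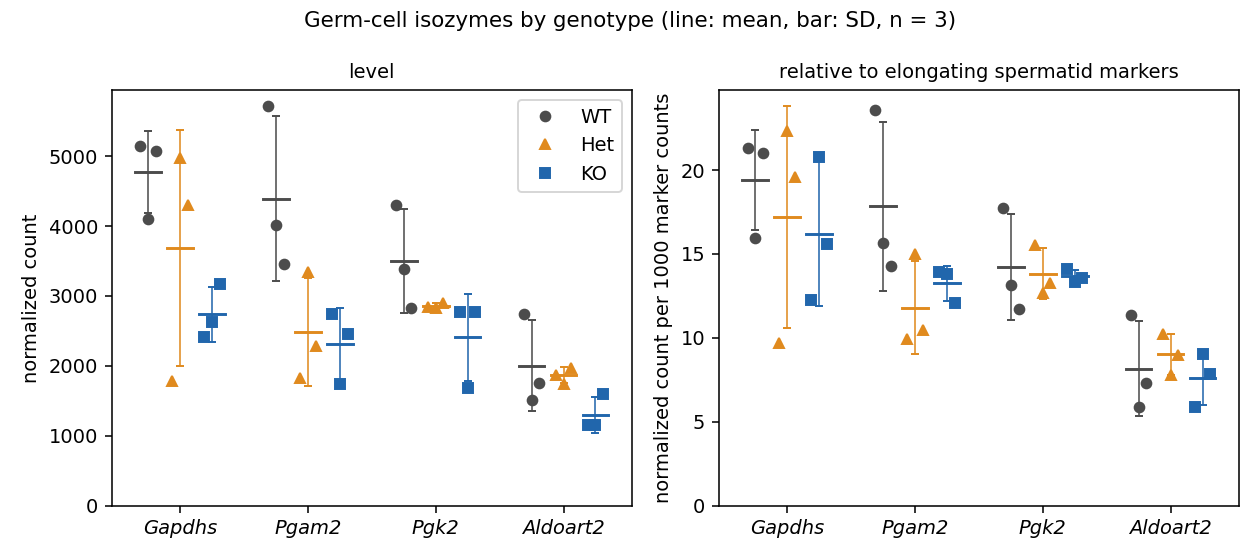
Gapdhs, Pgam2, Pgk2 and Aldoart2 in each animal (points, with the mean as a line and the SD as a bar, n = 3 per genotype), as normalized counts on the left and per 1000 normalized counts of the summed elongating spermatid markers on the right. On the left the KO animals lie below the WT animals for Gapdhs, Pgam2 and Pgk2, and on the right they do so for Pgam2 alone.

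The balance between germ-cell and somatic isozymes was examined as a share of the reads of a step within each animal, which does not depend on the size factor. The form named first in each pair below held most of the reads in WT for 6 of the 8 pairs. The share was 99.7% ± 0.083 (SD, n = 3) for Gapdhs over Gapdh, 98.7% ± 1.0 for Pgk2 over Pgk1, 97.2% ± 0.15 for Pgam2 over Pgam1 and 98.9% ± 0.21 for Slc2a3 over Slc2a1. In every genotype the Gapdhs share carries the limit given above, that Gapdh is hard to count by sequence. Aldoart1 and Aldoart2 held 62.8% ± 1.4 of the aldolase reads in WT, 68.0% ± 2.2 in Het and 63.0% ± 4.6 in KO. Slc16a7 held 83.9% ± 3.7 of the lactate carrier reads in WT, with 88.2% in WT1, where Slc16a3 was low. In WT, Pfkfb4 held 42.6% ± 15.6 of the reads of its step, and Eno4 held 26.5% ± 9.9 of the reads of Eno1, Eno2, Eno3 and Eno4. Eno1b was left out of this total in all genotypes, and with it the Eno4 share would be smaller. In WT, Eno1b had 163, 274 and 269 normalized counts. The Pgk2 share was highest in WT1, where Pgk1 was low.

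In KO the shares were 99.4% ± 0.14 for Gapdhs, 98.4% ± 0.88 for Pgk2, 95.2% ± 2.2 for Pgam2, 99.1% ± 0.35 for Slc2a3, 54.3% ± 36.4 for Slc16a7, 35.2% ± 20.5 for Pfkfb4 and 19.2% ± 7.7 for Eno4. For 3 pairs (Gapdhs, Pgam2 and Slc16a7) the KO and WT shares did not overlap, each with the smallest p a two-sided exact permutation test of 3 against 3 can give (p = 0.1, adjusted over the 8 pairs to 0.267). In each of these pairs the nearest KO and WT animals were nearly equal. The Slc16a7 shares of KO1 and WT3 were 81.1% (95% Wilson interval 78.5 to 83.4) and 81.6% (79.0 to 83.9). The Gapdhs shares of KO3 and WT1 were 99.55% (99.27 to 99.72) and 99.57% (99.32 to 99.73). The Pgam2 shares of KO1 and WT1 were 96.96% (96.31 to 97.49) and 97.07% (96.56 to 97.52). In Het the Pgam2 shares were 93.3%, 96.6% and 95.6% and the Slc16a7 shares 71.7%, 80.0% and 11.6%, also below every WT animal. The Gapdhs shares in Het, 98.3%, 99.7% and 99.5%, overlapped those in WT. The Slc16a7 share in KO3, 12.8% (95% Wilson interval 8.95 to 18.0, counting error only), and in Het3, 11.6% (7.77 to 16.9), came from the missing Slc16a7 reads of those animals.

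The second comparison was between Het and WT, which shares the WT animals with the first. By limma 0 of 33 members were called, and with limma the rule called 0.0% of the 14216 genes tested. On the recovered reads edgeR called 0 genes and DESeq2 called 31, with 0 members among them. At an unadjusted p under 0.05, 2 members passed (6.06%, background 3.34%), both lower in Het (background 1.89%), and 0 were higher (background 1.46%). They were Pfkfb4 with -1.60 (SE 0.48) and Pgam2 with -0.83 (SE 0.29), each with an adjusted p of 0.779 by limma. Gapdhs differed by -0.50 (SE 0.40) and Eno4 by -1.40 (SE 0.64).

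The Het and WT animals did not overlap for 9 members (27.3%, background 13.3%). In 8 of them Het was lower (Pfkfb4, Pgam2, Eno4, Eno1, Bpgm, Aldoa, Gpi1 and Pfkp; background 6.49%) and in 1, Gpd1l, higher (background 6.76%). The median log2 fold change was -0.09 over the members and 0.01 over all genes. Without WT1 and Het1 together, Pfkfb4 was the 1 member of 33 with an unadjusted p under 0.05, where 2.54% of all genes passed.

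KO was last set against Het, a comparison that shares its animals with both others. The rule called 0 of 33 members by limma, edgeR and DESeq2 alike and 0.0558% of the 14343 genes tested by limma, while edgeR called 5 genes and DESeq2 38. At an unadjusted p under 0.05, 3 members passed (9.09%, background 3.56%). Aldoart2 at -0.53 (SE 0.17) and Gpi1 at -0.43 (SE 0.15) were lower in KO (background 1.82%), and Eno3 at 0.48 (SE 0.17) was higher (background 1.74%), all with an adjusted p of 0.973 by limma. Pkm was called only in the fit without Het2 (log2 fold change 4.35, adjusted p = 0.0141 by limma), where the Het group consists of the 2 animals with hardly any Pkm reads. The median log2 fold change was -0.09 over the members and -0.00 over all genes.

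Genes of neighbouring pathways were read in the same fit. Of 73 further genes of glucose transport, glycolysis and gluconeogenesis, pyruvate entry into mitochondria, the pentose phosphate pathway, glycogen and polyol metabolism and monocarboxylate transport, 71 were in the table and 54 were tested in KO against WT. None was called by limma, 1 was higher and 1 was lower at an unadjusted p under 0.05 (shares of all genes 3.04% and 5.03%), and the median log2 fold change was 0.05. The lower gene was G6pc3, a ubiquitous glucose 6-phosphatase, with 537, 40.5 and 46.3 normalized counts in WT and 11.2, 13.5 and 9.83 in KO, so that WT1 alone was far above the rest. The higher gene was Pygl, the liver-type glycogen phosphorylase, with 0, 6.75 and 5.79 in WT and 15.5, 13.5 and 20.6 in KO. By list, the pentose phosphate genes were 5 higher and 6 lower of 11 tested, and the pyruvate entry genes 7 higher and 6 lower of 13, none of them at an unadjusted p under 0.05.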

How the data were processed

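Testicular RNA of male mice was made into 9 QuantSeq 3′ libraries (3 WT, 3 Het, 3 KO) and sequenced as 50-base reads. Per the submitters' processing notes and the methods, the authors trimmed reads with Trim Galore 0.4.5, aligned them to GRCm38 with HISAT2 2.1, counted genes with StringTie 1.3.3 and its count script, and removed pseudogenes. The deposited signal values are counts per gene after division by that sample's DESeq2 size factor: 100% of values were whole multiples of 1 count, within 1e-06 of the count. The read length given to the count script is not given in the sources used here, so recovered reads may be off by 1 common factor. Columns name genotype and replicate.

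Differences were tested with limma 3.58.1 (eBayes with trend, R 4.3.3) on log2(value + 1), over genes with at least 10 in at least 3 of the animals compared and only the 2 genotypes compared, with Benjamini-Hochberg adjustment over all genes. The call, an adjusted p under 0.05 and a log2 fold change over 1.5, is the study's. All rows entered the fits. Alternatives were edgeR 4.0.16 and DESeq2 1.42.0 on the recovered reads, TMM factors, other filters and pseudocounts, all 9 animals in 1 fit, summed rows of a symbol, a replicate block and each animal left out. The functions were tested on simulated counts. Unadjusted p-values are given as descriptions.

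Per-animal values are given for germ-cell isozymes and their somatic partners and for members with an unadjusted p under 0.05 in any comparison or without overlap between KO and WT. Gpd2, Pfkm, Slc16a3, Slc16a7 and Pkm single-animal gaps were noted after seeing values. Of the other pathway lists, up to 5 genes under 0.05 in KO against WT are named. Members and lists were chosen with earlier results of these data known. Annotation came from GENCODE vM21 (GRCm38) by Ensembl gene, and promoters from RefSeq, where 32 of 37 members matched by symbol.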

Additional observations from a re-analysis of the deposited data

How the results depend on the processing

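No member was called in KO against WT or Het against WT under any of the 10 alternatives or without any 1 animal, and in KO against Het the number called was 0 under the 10 alternatives and 0 to 1 without 1 animal. The number of members with an unadjusted p under 0.05 was 5 to 7 in KO against WT over the alternatives and 3 to 9 without 1 animal, 1 to 3 in Het against WT over the alternatives (1 with the replicate block, 1 without WT1 and Het1 together, an alternative chosen after seeing the data) and 1 to 3 without 1 animal, and 1 to 3 in KO against Het (1 with all 9 animals in 1 fit, 1 with the replicate block) and 0 to 3 without 1 animal. The median log2 fold change of the members in KO against WT was -0.45 with the filter at 50, which tests fewer genes, and -0.40 to -0.11 without 1 animal, in Het against WT -0.27 to -0.06 and in KO against Het -0.19 to 0.00 without 1 animal. The number of isozyme pairs whose KO and WT shares did not overlap was 3 on the log2 ratio scale and 3 to 4 without 1 animal. The cause of the other changes was not tested. The labels do not say what the replicate numbers mark. Deviations of same-numbered animals from their genotype means correlated with r from -0.12 to -0.03 in KO against WT, -0.03 to 0.21 in Het against WT (0.17 for number 1, 0.21 for number 2) and -0.14 to 0.07 in KO against Het, so not every pair deviated together and the samples were not treated as paired. With the replicate block the members passing in KO against WT were 5 and no member was called. In KO against WT, limma called 5 of all genes, edgeR 5, DESeq2 100 and the block 0. Levels under 2.58 to 3.71 normalized counts lie under 3 reads, which limits Gpd1l, Eno2 and the low animals of Slc16a3.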
